A study of Mus musculus with 6 samples.

Results

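The genes described here are members of the fibroblast growth factor (FGF) pathway in mouse uterine luminal epithelium: the ligands Fgf9 and Fgf18, the receptors Fgfr1, Fgfr2 and Fgfr3, and the feedback and target genes Spry1, Spry2, Spry4, Dusp6 and Etv5. They were chosen by symbol, with earlier results of these data known, and all 10 were found among the 24964 genes of the expression table. The luminal epithelium lines the uterine cavity and is the layer an embryo first meets. It was taken by laser capture on pregnancy day 4 from mated females that had been kept with female littermates on normal chow until 8 weeks of age. Libraries were made from total RNA of 3 samples of each genotype. Both genotypes carried Foxo1f/f, floxed alleles of the forkhead transcription factor gene Foxo1. The Foxo1ff samples carried nothing more by their labels, and the Foxo1dd samples were Pgrcre/+Foxo1f/f, with Cre recombinase at the progesterone receptor gene Pgr. Pgrcre acts in cells that express the progesterone receptor and so is not limited to luminal epithelium. Besides Foxo1, the genotypes also differ at Pgr. The labels call the samples bioreplicates and do not say how many animals each holds, so the p-values here speak only of sample-to-sample spread.

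FGF ligands are secreted proteins that bind receptor tyrosine kinases on neighbouring cells together with heparan sulfate. The activated receptor signals through the docking protein FRS2, RAS and the ERK kinases, which switch on ETS factors such as ETV4 and ETV5 and a set of inhibitors, the Sprouty proteins and the ERK phosphatase DUSP6, that damp the same signal. These inhibitors also respond to other receptor tyrosine kinases. In the mouse uterus, FGFs from the stroma are known to drive proliferation of the epithelium through this route, and progesterone acts through the stromal factor HAND2 to restrain them.

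Levels are in FPKM, a read count divided by gene length and library size, and are comparable between genes per length. Foxo1 FPKM was 160.0, 118.5 and 110.8 in the Foxo1ff samples and 1.72, 0.942 and 1.22 in the Foxo1dd samples, and Pgr FPKM was 2.44, 1.64 and 2.02 against 36.2, 29.9 and 28.3. The targeted gene was therefore low in each Foxo1dd sample. The FPKM of all genes summed to 613186 to 667499 in the Foxo1ff samples and to 552190 to 564628 in the Foxo1dd samples. Foxo1dd 2 had the fewest genes above 0, 13995 against 15474 to 16062 in the other 5 samples, and its Rn45s, the precursor of ribosomal RNA, was highest at 40296 FPKM, the others lying between 23715 and 31304. A read of a 1 kb gene was worth about 0.0102 to 0.0136 FPKM. Of 14 luminal epithelial markers, all tested, 7 were higher in Foxo1dd and 2 lower (Epcam and Cdh1). These are 50% and 14.3%, beside 22.2% and 34.2% of all tested genes. The list summed to 2934 to 3917 FPKM in Foxo1ff samples and to 4692 to 6004 FPKM in Foxo1dd samples. Calb1, a calcium-binding protein, went from a mean of 4.13 to 539 FPKM and the lysophosphatidic acid receptor gene Lpar3 from 5.20 to 174.9 FPKM. Epcam, Cdh1 and Krt8 had mean levels of 555, 289 and 280 FPKM in the Foxo1ff samples and 393, 194 and 680 FPKM in the Foxo1dd samples. Mean levels of the stromal Hand2 (1.60 and 1.17 FPKM) and Pdgfra (0.508 and 0.410), the smooth muscle Acta2 (0.484 and 0.6997), the endothelial Pecam1 (0.0867 and 0.207), the leukocyte Ptprc (3.59 and 0.294) and the glandular Foxa2 (0.943 and 0.644) were far below these. Some other genes listed as markers of those cells had higher levels than the markers just named. Nr2f2 and Col3a1, listed as stromal, averaged 22.0 and 28.9 FPKM and 2.86 and 5.35 FPKM in Foxo1ff and Foxo1dd. Sult1d1 and Spink1, listed as glandular, averaged 1002 and 258 FPKM and 93.3 and 0.124 FPKM. Lyz2, listed as leukocyte, averaged 43.5 and 7.51 FPKM. In Foxo1ff Sult1d1 stood above Epcam while Foxa2 was at 0.943 FPKM, and whether Sult1d1 marks glands in these samples was not tested.

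Each gene was tested on log2(FPKM + 1) with limma, over all genes whose mean in the 6 samples was 1 FPKM or more. A gene was called higher or lower in Foxo1dd at a Benjamini-Hochberg adjusted p under 0.05. Of the 10 members, 8 reached the minimum. Called higher were 3 (Fgf18, Fgfr2 and Spry2) and called lower were 3 (Fgf9, Spry4 and Dusp6), while Spry1 and Etv5 were not called. Among all 11427 genes tested, 22.2% were called higher and 34.2% lower, 56.4% in all, so a call by itself was common in this comparison. In 5 of the 8 members the Foxo1dd and Foxo1ff values did not overlap, which held for 64.2% of all tested genes. The median log2 change of the 8 members was 0.01, and that of all tested genes was -0.15. Fgf18 and Spry4 reached the minimum through the group in which they were high, so the counts say nothing about the members as a set. Fgfr1 and Fgfr3 lay below the minimum.

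**Figure D1:**
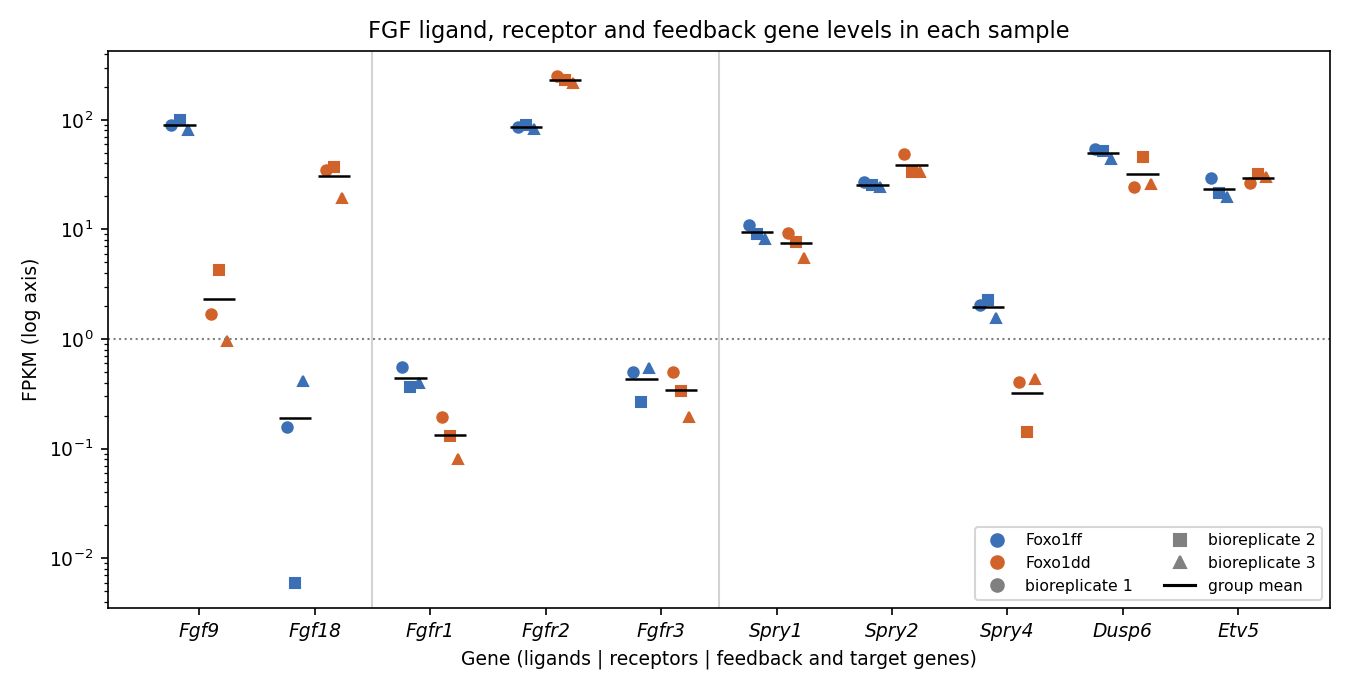
Each point is the FPKM of a gene in a sample, on a log axis, with Foxo1ff in blue, Foxo1dd in orange, symbols for the bioreplicates and black lines at the group means. The dotted line marks 1 FPKM. Fgf9 and Fgf18 exchange places between the groups, Fgfr2 lies above 200 FPKM in all 3 Foxo1dd samples, and the groups overlap for Fgfr3, Spry1, Dusp6 and Etv5.

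The ligand genes moved in opposite directions. The stretches before their start sites are shown because these genes had the largest changes among the members and the factor deleted binds a known DNA motif, together with part of the Etv5 stretch, the only member window in which that motif was found. Sequences are from RefSeq (GRCm38.p6), 5′ to 3′ on the gene's strand, and capitals mark the forkhead motif GTAAACA. For Fgf9 (chr14:58072436-58072685, plus strand) and Fgf18 (chr11:33147401-33147650, minus strand) all 250 bases before the RefSeq start are printed. The RefSeq start of Fgf9, at base 58072686, lies 2139 bases inside the outer bounds of the gene in GENCODE M21, which has a transcript that begins further upstream. For Etv5 (chr16:22439720-22439820, minus strand) only the 101 bases outside annotated exons are printed, and its RefSeq start lies 149 bases inside the GENCODE gene.
Fgf9: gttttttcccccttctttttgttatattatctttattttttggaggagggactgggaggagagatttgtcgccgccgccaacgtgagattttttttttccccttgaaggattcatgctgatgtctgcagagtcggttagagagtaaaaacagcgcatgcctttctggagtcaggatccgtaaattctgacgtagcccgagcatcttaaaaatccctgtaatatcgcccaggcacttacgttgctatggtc
Fgf18: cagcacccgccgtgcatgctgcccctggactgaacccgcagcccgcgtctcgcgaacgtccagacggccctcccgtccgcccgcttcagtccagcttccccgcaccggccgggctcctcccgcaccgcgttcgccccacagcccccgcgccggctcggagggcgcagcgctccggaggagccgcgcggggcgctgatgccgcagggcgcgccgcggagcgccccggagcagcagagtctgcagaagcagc
Etv5: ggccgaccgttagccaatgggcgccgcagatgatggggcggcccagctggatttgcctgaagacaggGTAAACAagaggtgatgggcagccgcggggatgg

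The motif GTAAACA was looked for on both strands and found in 1 of 10 windows of 250 bases from the 8 members with an entry, in Etv5 at 183 bases before the RefSeq start. Over all 32851 such windows 3.17% held it. The Fgf9 and Fgf18 windows differ in base make-up, with 44.8% and 77.2% G and C. A match or its absence describes these letters in these windows and no more, and Fgfr1 and Spry4 were not matched.

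Fgf9, a ligand that signals between epithelium and mesenchyme in many organs, lies on chromosome 14 (58070547 to 58112720, plus strand, mm10), with no overlapping exon of another gene. Its level was 89.4, 99.8 and 80.9 FPKM in the Foxo1ff samples and 1.68, 4.29 and 0.952 FPKM in the Foxo1dd samples. Every Foxo1ff sample was high and every Foxo1dd sample low, with a wide gap between the groups. The mean fell 39.0-fold, from 90.0 ± 9.48 to 2.31 ± 1.75 FPKM (SD, n = 3 each), a log2 change of -4.91 ± 0.31 (SE, limma adjusted p = 2.98e-06). Only 0.534% of the tested genes had a larger change in either direction. In Foxo1ff, Fgf9 stood above 90.6% of the tested genes in mean level, and in Foxo1dd above 12.9%.

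Fgf18, a ligand of another subfamily, known from bone and lung development, lies on chromosome 11 (33117430 to 33147400, minus strand). It was near the limit of detection in Foxo1ff, at 0.156, 0.006 and 0.412 FPKM, and reached 34.7, 37.3 and 19.4 FPKM in Foxo1dd. For the annotated exon length of this gene, 1187 bases, a read is worth about 0.00858 to 0.0114 FPKM, so the lowest value corresponds to no more than about 1 read. That value, 0.006 FPKM, lies below the worth of 1 read. The length used for the table may therefore be longer, and read numbers given for Fgf18 may be too low. The groups did not overlap, and Foxo1dd 3 was the lowest of its group. The mean rose 159.4-fold, from 0.191 ± 0.205 to 30.5 ± 9.67 FPKM (SD, n = 3 each). On the log2(FPKM + 1) scale, which understates changes of low genes, the rise was 4.69 ± 0.26 (SE, adjusted p = 1.34e-06).

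In bulk tissue, fewer cells of a type and less RNA per cell cannot be told apart, and genes listed as markers of other cells differed between the genotypes. Of 8 glandular markers 5 were tested, 4 were lower (Spink1, Prss28, Prss29 and Sult1d1) and 1 higher (Lif). Spink1, Prss28 and Prss29 reached the minimum only through Foxo1ff and Lif only through Foxo1dd, so the count says nothing of the list. The list summed to 937 to 1388 FPKM in Foxo1ff samples and to 153 to 381 FPKM in Foxo1dd samples, most of it Sult1d1 (876 to 1178 and 152 to 374 FPKM). The 14 stromal markers summed to 39.5 to 46.1 and 43.6 to 62.3 FPKM, with 11 tested, 3 higher (Col3a1, Nr2f2 and Sparc) and 0 lower. The 8 leukocyte markers summed to 31.8 to 79.4 and 15.3 to 20.7 FPKM, with 5 tested, 4 lower (Ptprc, Csf1r, C1qa and Lyz2) and 1 higher (Cd68). Ptprc and Csf1r reached the minimum only through Foxo1ff. The 6 smooth muscle markers summed to 3.39 to 5.92 and 5.34 to 7.01 FPKM, with 3 tested, 1 higher (Myl9, adjusted p = 0.00703) and 0 lower. Myl9 reached the minimum only through Foxo1dd. The 6 endothelial markers, all below the minimum, summed to 1.27 to 1.47 FPKM in Foxo1ff samples and 1.79 to 3.73 FPKM in Foxo1dd samples, without overlap. The glandular Cxcl15, the smooth muscle Myh11 and the endothelial Emcn were listed at 0 in all Foxo1ff samples. Among all tested genes 22.2% were called higher and 34.2% lower, to be read beside these marker counts. The part of other cells in the changes of Fgf9, Fgf18 and the genes below was not tested.

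Together the ligand genes gave a different make-up in each genotype. Summed over the 22 Fgf genes of the mouse, the level was 90.5, 100.7 and 82.1 FPKM in the Foxo1ff samples and 38.2, 44.5 and 22.9 FPKM in the Foxo1dd samples. Fgf9 made up 98.6% to 99.2% of this sum in Foxo1ff and 4.15% to 9.63% in Foxo1dd, while Fgf18 made up 0.00596% to 0.502% and 83.9% to 91.0%. The total was thus lower in every Foxo1dd sample than in any Foxo1ff sample. The sums follow from the values above and were not tested.

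The other 20 Fgf genes all stayed below the minimum, and 10 of them were listed at 0 in every sample, among them Fgf2. Fgf7 and Fgf10, stromal ligands of the epithelial splice form of Fgfr2, reached at most 0.203 and 0.166 FPKM in any sample. The genes named next were picked after their values were seen. Fgf1 ran from 0.011 to 0.130 FPKM in Foxo1ff and from 0.458 to 0.544 FPKM in Foxo1dd. Fgf16, which belongs to the same subfamily as Fgf9, was at 0, 0.007 and 0.016 FPKM against 0.136, 0.418 and 0.809 FPKM. Fgf11, an intracellular FGF that is not secreted, was at 0.497 to 0.810 against 0.867 to 1.79 FPKM. In these low genes the groups did not overlap. Tested without a minimum, Fgf1 (log2 change 0.49, adjusted p = 0.00112) and Fgf16 (0.50, adjusted p = 0.0495) were called higher and Fgf11 was not called (0.41, adjusted p = 0.127).

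**Figure D2:**
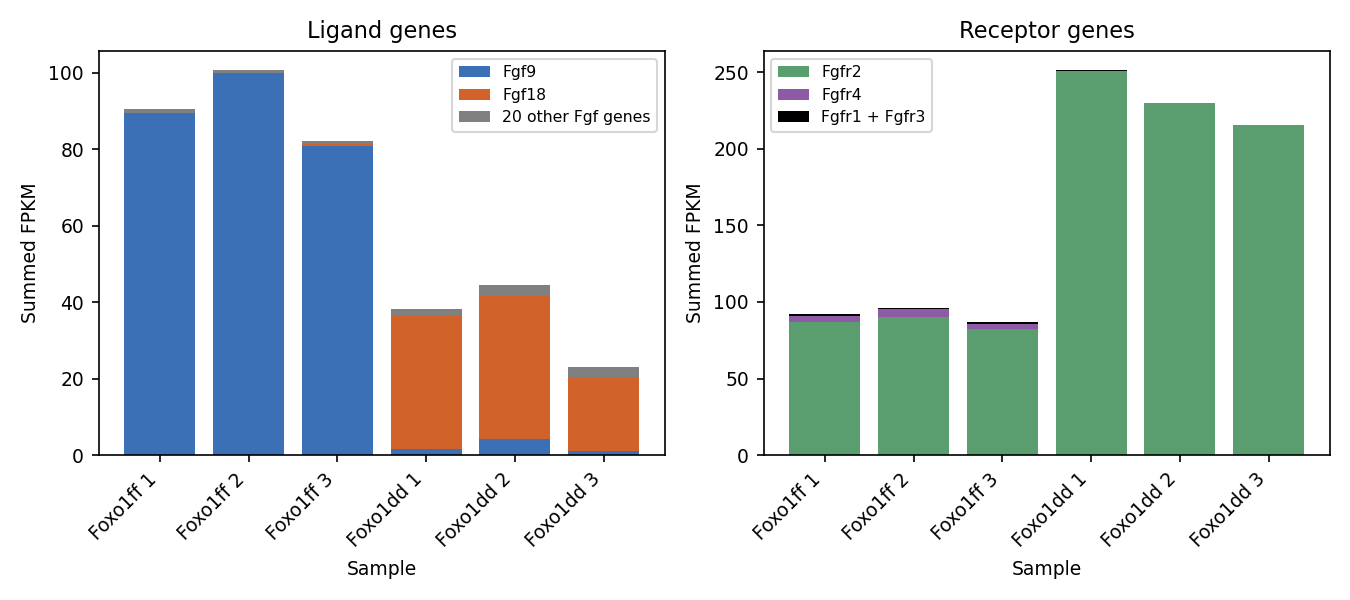
Stacked bars give the summed FPKM per sample of the 22 Fgf genes (left, titled ligand genes) and of Fgfr1 to Fgfr4 (right). The 22 genes include intracellular FGFs such as Fgf11, which is not secreted. Fgf9 fills nearly the whole ligand bar in the 3 Foxo1ff samples and Fgf18 most of it in the 3 Foxo1dd samples. Fgfr2 makes up at least 93.6% of the receptor bar in every sample, and the total is 215 to 251 FPKM in Foxo1dd against 86.6 to 96.1 FPKM in Foxo1ff.

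Among the receptors, Fgfr2 was the main one expressed in both genotypes and was higher in Foxo1dd. Fgfr2 is the receptor through which epithelia of many organs receive FGFs from the mesenchyme. Its level was 86.8, 90.0 and 82.1 FPKM in the Foxo1ff samples and 251, 229.5 and 215 FPKM in the Foxo1dd samples. Samples of a genotype lay close together and the groups were well apart. The mean rose 2.69-fold, from 86.3 ± 3.97 to 232 ± 17.9 FPKM (SD, n = 3 each), a log2 change of 1.41 ± 0.11 (SE, adjusted p = 9.80e-06). In Foxo1dd it stood above 97.2% of the tested genes in mean level. In GENCODE M21, a transcript model of Fgfr2 runs far upstream (chromosome 7, 130162451 to 133123350, minus strand) and shares exon bases with Ctbp2 on the same strand, so the value is uncertain to that extent. Ctbp2 itself was not called, its mean being 57.5 FPKM without Cre and 47.2 FPKM with it. The table has 1 value per gene, so the epithelial and mesenchymal splice forms of the receptor were not resolved.

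Fgfr1 and Fgfr3 were low throughout. Fgfr1, the receptor best known from mesenchymal cells, was at 0.560, 0.367 and 0.395 FPKM in the Foxo1ff samples and 0.193, 0.129 and 0.080 FPKM in the Foxo1dd samples. All 3 Foxo1dd values lay below the Foxo1ff range. Tested without a minimum, Fgfr1 had a log2 change of -0.34 (adjusted p = 0.00964) and was called lower. An antisense gene, Gm16159, overlaps Fgfr1 exons and was listed at 0 in every sample. Antisense genes also overlap exons of Fgfr3 (G630022F23Rik) and Spry1 (Gm42922), and no level was available for these. Fgfr3, a receptor that binds Fgf9 and Fgf18 with high affinity, was at 0.495, 0.267 and 0.541 FPKM against 0.501, 0.338 and 0.196 FPKM. Its groups overlapped, and without a minimum the change of -0.09 was not called (adjusted p = 0.563).

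The remaining receptor gene, Fgfr4, was at 4.28, 5.53 and 3.57 FPKM in Foxo1ff and nearly absent from Foxo1dd, at 0.008, 0 and 0.037 FPKM (log2 change -2.41 ± 0.20, SE, adjusted p = 1.18e-05). As a share of the summed level of the 4 receptor genes, Fgfr2 went from 93.6% to 94.8% in Foxo1ff to 99.7% to 99.9% in Foxo1dd. Fgfr2 was the receptor with the highest level in every sample, and Fgfr4 was second in Foxo1ff. The ranges of Fgfr1 and Fgfr3 overlapped in Foxo1ff, while in Foxo1dd the highest Fgfr1 value, 0.193 FPKM, lay just below the lowest Fgfr3 value, 0.196 FPKM.

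The inhibitors and targets of the pathway, whose levels follow ERK signalling in many tissues, did not move in a single direction. Spry2, a Sprouty inhibitor of RAS-ERK signalling (chromosome 14, 105891947 to 105896819, minus strand), was at 26.8, 25.4 and 24.5 FPKM in the Foxo1ff samples and 49.0, 33.1 and 33.5 FPKM in the Foxo1dd samples. Each Foxo1dd sample lay above the Foxo1ff range, with Foxo1dd 1 apart from the others. The mean was 1.51-fold higher, a log2 change of 0.55 ± 0.16 (SE, n = 3 each, adjusted p = 0.0176). This call was lost without Foxo1ff replicate 2 (adjusted p = 0.0556) or Foxo1ff replicate 3 (adjusted p = 0.0549), and held in the other 14 of 16 alternatives (adjusted p from 0.00216).

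Spry4, a related inhibitor, went the other way. Its level was 2.04, 2.26 and 1.54 FPKM in the Foxo1ff samples and 0.401, 0.141 and 0.431 FPKM in the Foxo1dd samples, with no overlap. The mean was 6.01-fold lower, and the log2 change was -1.15 ± 0.20 (SE, n = 3 each, adjusted p = 0.00113). With a pseudocount of 0.1 in place of 1 the change was -2.34, since its level is low. Spry1 was at 11.03, 9.08 and 8.13 FPKM in the Foxo1ff samples and 9.19, 7.63 and 5.52 FPKM in the Foxo1dd samples. The groups overlapped and the log2 change of -0.32, with a 95% interval of -0.76 to 0.13, was not called (adjusted p = 0.201). By level, Spry2 was above Spry1 and Spry1 above Spry4 in every sample. Spry2 made up 67.2% to 71.7% of the sum of these 3 genes in Foxo1ff and 81.0% to 84.9% in Foxo1dd.

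Dusp6, a phosphatase that removes the activating phosphates from ERK (chromosome 10, 99263231 to 99267489, plus strand), was at 54.2, 51.8 and 43.9 FPKM in the Foxo1ff samples and 24.3, 46.1 and 26.0 FPKM in the Foxo1dd samples. Foxo1dd 2 lay within the Foxo1ff range and the other 2 samples of its group were lower. The mean was 1.56-fold lower, with a log2 change of -0.68 ± 0.23 (SE, n = 3 each, adjusted p = 0.0292). The call was lost in 7 of 16 alternatives. These were no minimum (adjusted p = 0.0787), median-of-ratios scaling (0.103), quantile normalization (0.0889), and leaving out Foxo1ff 1 (0.0847), Foxo1ff 2 (0.0823), Foxo1dd 1 (0.113) or Foxo1dd 3 (0.0849). Without Foxo1dd 2 the change was -0.96 and the call held (adjusted p = 0.00045).

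Etv5, an ETS transcription factor induced by FGF signalling (chromosome 16, 22381309 to 22439719, minus strand), was at 29.2, 21.5 and 19.6 FPKM in the Foxo1ff samples and 26.6, 31.9 and 30.0 FPKM in the Foxo1dd samples. Foxo1ff 1 lay within the Foxo1dd range. The log2 change was 0.34, with a 95% interval from -0.03 to 0.71, and was not called (adjusted p = 0.110). It was called higher in 4 of 16 alternatives: median-of-ratios scaling (adjusted p = 0.0426), quantile normalization (0.0290), array weights (0.0239) and without Foxo1ff replicate 1 (0.0209). Its relative Etv4, picked after its values were seen, was at 1.92, 1.51 and 0.995 FPKM in Foxo1ff and listed at 0 in all 3 Foxo1dd samples. Etv4 lay below the minimum mean, and tested without a minimum it was called lower (adjusted p = 0.000967).

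**Figure D3:**
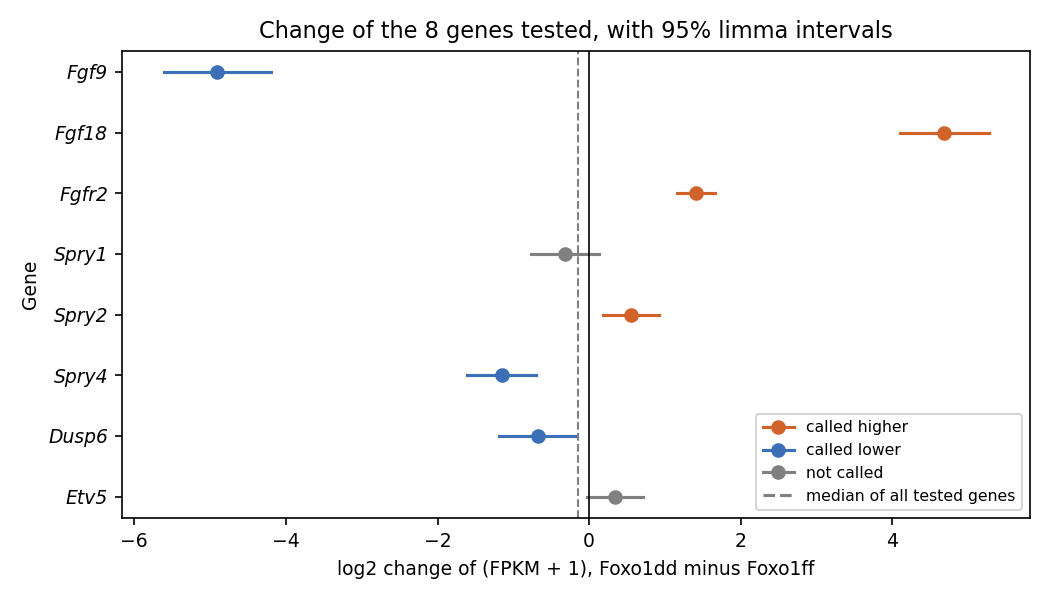
Points give the log2 change of (FPKM + 1), Foxo1dd minus Foxo1ff, of the 8 members tested, and lines give 95% limma intervals. Orange marks genes called higher, blue called lower and grey not called, and the dashed line is the median of all tested genes at -0.15. Fgf9 and Fgf18 lie at -4.91 and 4.69, and the 5 feedback and target genes lie between -1.15 and 0.55 on both sides of 0.

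Genes that act with the members were taken from 5 lists grouped by known function and chosen with earlier results of these data known. The lists were other Fgf genes, receptors and binding proteins, feedback genes and targets, docking and RAS-ERK proteins, and heparan sulfate genes. Of 83 such genes 50 were tested, 6 were called higher and 19 lower. These are 12% and 38%, beside 22.2% and 34.2% of all tested genes, so the share lower was near that of all genes. The median log2 change was -0.39 beside -0.15 for all tested genes. Of the 50, 6 reached the minimum only through Foxo1ff (Fgfr4, Fgfbp1, Flrt2, Il17rd, Egr1 and Gpc3) and 0 only through Foxo1dd, which favours falls in the count and the median. Among all tested genes 4.97% and 3.99% did so.

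Of 9 further receptors and binding proteins 4 were tested and called lower, but 3 of these, Fgfr4, Fgfbp1 and Flrt2, reached the minimum only through Foxo1ff, so the count says nothing of the list. Beside Fgfr4, Fgfbp1, a carrier that releases FGFs from the matrix, was at 1.46, 3.48 and 6.51 FPKM in the Foxo1ff samples and 0.125, 0 and 0.075 FPKM in the Foxo1dd samples (log2 change -2.03, adjusted p = 0.00115). Flrt2, a transmembrane protein of a family that binds FGF receptors, had mean levels of 2.19 and 0.811 FPKM, with a log2 change of -0.81 (adjusted p = 0.0150). Its call was lost with array weights (log2 change -0.48, adjusted p = 0.0723) and without Foxo1ff replicate 1 (0.0510) or Foxo1ff replicate 3 (0.0598). Fgfrl1, a receptor-like protein without a kinase domain, was at 22.2 and 16.3 FPKM (adjusted p = 0.0461), and its call was lost in 10 of 16 alternatives, scaling by median of ratios among them (adjusted p = 0.152).

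The 14 further feedback genes and targets had 9 tested, 1 higher and 3 lower (11.1% and 33.3%, beside 22.2% and 34.2% of all tested genes). Myc, a growth-promoting transcription factor, fell from 139, 92.7 and 83.1 FPKM in Foxo1ff samples to 7.84, 1.98 and 6.17 FPKM, and its log2 change was -4.17 ± 0.37 (SE, adjusted p = 1.97e-05). Spred1, an inhibitor of RAS activation, fell 2.01-fold, from 36.4 ± 2.23 to 18.1 ± 4.48 FPKM (SD, n = 3 each, adjusted p = 0.000948). Il17rd, known as Sef and an inhibitor of FGF signalling, fell 4.42-fold, from 2.71 to 0.613 FPKM (adjusted p = 0.00415). Fos, an immediate early gene of ERK signalling, was the gene that rose, from 1.52, 1.80 and 1.98 FPKM to 7.16, 6.19 and 27.9 FPKM (log2 change 2.11 ± 0.45, SE, adjusted p = 0.00355). Egr1, another immediate early gene, averaged 1.70 and 0.732 FPKM, with overlapping groups. Its log2 change of -0.64 was not called (adjusted p = 0.0779). It was called lower with array weights (0.0118) and without Foxo1ff replicate 1 (0.0279) or Foxo1dd replicate 3 (0.0238). Egr1 reached the minimum only through Foxo1ff.

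Foxo1dd 3, the sample with the highest Fos level, also stood apart for related phosphatases, which were picked after their values were seen. Dusp5 was at 11.6, 11.8 and 7.23 FPKM in the Foxo1ff samples and 2.38, 1.38 and 11.7 FPKM in the Foxo1dd samples, and Dusp4 at 4.49, 2.62 and 2.34 against 0.630, 0.758 and 5.38 FPKM. Neither was called with all samples weighted equally (adjusted p = 0.0746 and 0.298). Without Foxo1dd replicate 3 both were called lower (adjusted p = 0.000285 and 0.00337), and with array weights on all 6 samples Dusp5 was also called lower (log2 change -1.13, adjusted p = 0.0349).

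All 20 docking and RAS-ERK genes were tested, of which 4 were higher and 6 lower. These shares, 20% and 30%, were close to the 22.2% and 34.2% of all tested genes, and the median log2 change was -0.19 beside -0.15. The ERK1 gene Mapk3 rose from 76.7 ± 4.91 to 137.3 ± 12.9 FPKM (SD, n = 3 each, log2 change 0.83, adjusted p = 0.000325). The adaptor Grb2 rose 1.59-fold and Plcg1, a phospholipase activated by FGF receptors, 1.65-fold (adjusted p = 0.00127 and 0.0199). The Plcg1 call was lost in 5 of 16 alternatives (adjusted p up to 0.0742): with no minimum (0.0514) or on leaving out Foxo1ff 2 (0.0704), Foxo1ff 3 (0.0742), Foxo1dd 1 (0.0529) or Foxo1dd 3 (0.0717). Gab1, a docking protein downstream of FRS2, fell 2.75-fold from 28.4 ± 8.48 to 10.3 ± 1.21 FPKM (SD, n = 3 each, adjusted p = 0.000623), and the ERK kinase gene Map2k1 fell 1.57-fold (adjusted p = 0.00141). Frs2 itself, which joins FGF receptors to RAS, was at 12.4 and 14.99 FPKM and was not called (adjusted p = 0.198), though it was called higher under median-of-ratios scaling (0.0352), quantile normalization (0.0258) and array weights (0.0155).

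Of 20 heparan sulfate genes, which build or carry the sugar chains that FGFs need to bind their receptors, 17 were tested, 1 was higher and 6 lower. The share lower, 35.3%, was about that of all tested genes, 34.2%, and the share higher was 5.88% beside 22.2%. The cell-surface carriers Gpc3, Gpc1, Sdc1 and Sdc4 fell, Gpc3 having reached the minimum only through Foxo1ff. The carriers Sdc2, Sdc3 and Gpc4 were tested and not called (adjusted p = 0.0622, 0.252 and 0.262). Gpc3 was at 7.88, 10.1 and 2.04 FPKM in the Foxo1ff samples and 0.240, 0 and 0.291 FPKM in the Foxo1dd samples (adjusted p = 0.000913). Gpc1 fell 3.72-fold, from 44.5 ± 3.39 to 11.95 ± 2.41 FPKM (SD, n = 3 each, adjusted p = 1.87e-05). Sdc1 and Sdc4 fell 1.99-fold and 1.65-fold (adjusted p = 0.000468 and 0.00589), Sdc4 remaining the most abundant carrier of the list at a mean of 254 FPKM in Foxo1dd. The other genes called lower, Ext2 and Hs6st1, encode enzymes that make or modify the chain. Ext2 averaged 18.5 and 12.1 FPKM (adjusted p = 0.00509) and Hs6st1 61.5 and 46.2 FPKM (adjusted p = 0.0129). The Hs6st1 call was lost without Foxo1ff replicate 2 (adjusted p = 0.0651). Glce, another enzyme that modifies the chain, was the gene that rose, 1.58-fold from 14.5 to 22.97 FPKM (adjusted p = 0.00810).

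**Figure D4:**
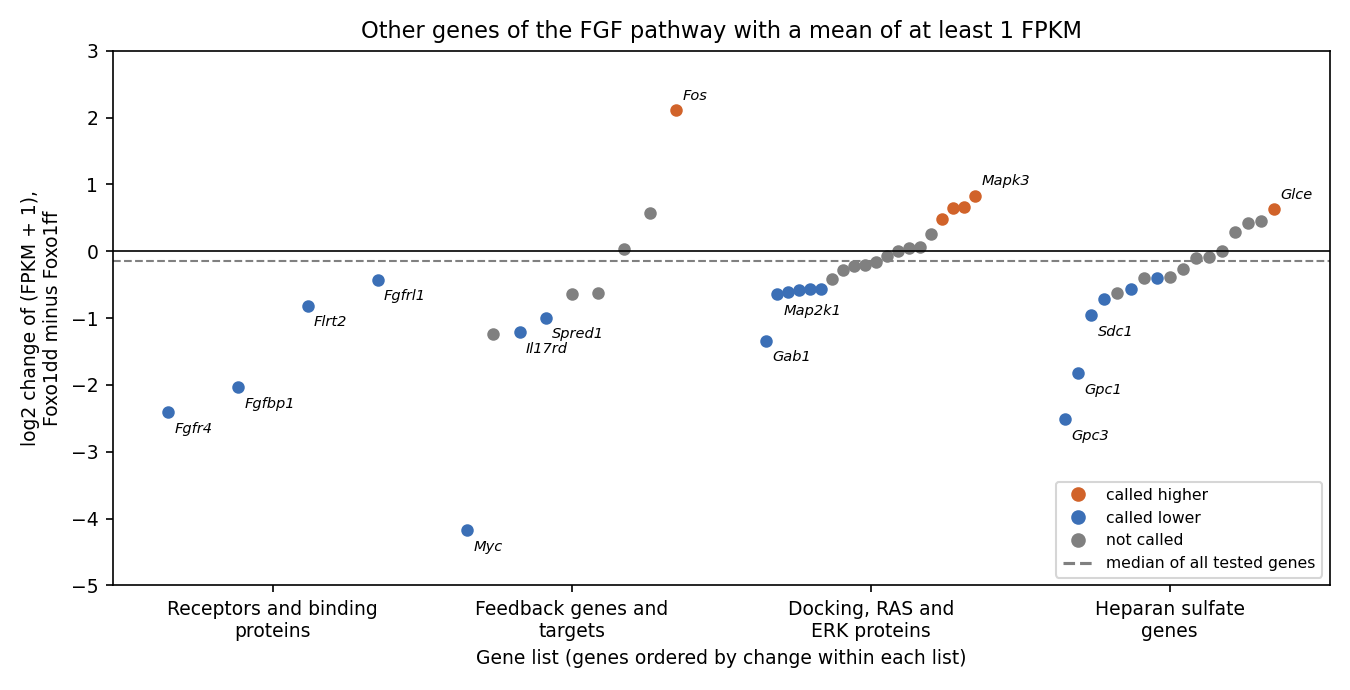
Each point is the log2 change of (FPKM + 1), Foxo1dd minus Foxo1ff, of a tested gene in 4 lists of FGF pathway genes, ordered by size within a list and coloured by call. The list of other Fgf genes has no tested gene and is not drawn. Changes run from Myc at -4.17 to Fos at 2.11. The 4 receptors and binding proteins lie below 0, but 3 of them reached the minimum only through Foxo1ff.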

How the data were processed

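The expression table holds 1 FPKM value per gene and sample, which the authors computed and deposited. The submitters' processing notes list DESeq2 1.12.4, edgeR 3.28.0, featureCounts 1.5.0-p1 of Subread and STAR 2.5.2b beside the genome build mm10, but say nothing of what each did. No annotation, gene length or strand setting was found in the sources used here, so antisense or overlapping genes could share reads. FPKM values are not counts, so log2(FPKM + 1) was fitted with limma 3.58.1 in R 4.3.3 (lmFit, eBayes with trend, genotype as the only term) over the 11427 of 24964 genes whose mean was 1 FPKM or more, with Benjamini-Hochberg adjustment over all of them. With 3 samples a group an exact permutation p is at least 0.1, so none was used. The procedure was tested on simulated data. Folds are ratios of mean FPKM.

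Depth was read from short RNA genes, whose FPKM times length stepped in whole reads to within 0.05 of a read. Between 88.5% and 100% of values below 12 reads were whole over 26 (Foxo1dd 2) to 132 genes, which gives a divisor of about 73680000 to 98260000 reads, least certain for Foxo1dd 2. The largest step leaving 80% of values or more whole was taken. Precision is limited by the spread of 3 samples.

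Positions and exon overlaps are from GENCODE M21 and sequences from RefSeq, both of GRCm38, the assembly of mm10; 24423 symbols matched. The members and lists were chosen with earlier results of these data known. Named were all members, up to 5 called genes per list with groups that do not overlap and the largest change, other ligands or receptors above the minimum, Foxo1, Pgr and defining markers of cell types. Other genes are given as picked after their values were seen, or stand beside a count. Alternatives were pseudocounts of 0.1 and 0.5, no minimum, a minimum of 5 FPKM, 2 other scalings, other variance and weight settings, the replicate block and leaving out each sample. Their use for genes outside the 10 members was added after seeing the data. Promoter entries of 300 bases were cut to the 250 before the start after a first search, in which 3.65% of entries and, of the members, Etv5 held GTAAACA. That search also covered a progesterone receptor motif, which no member entry held and which was not searched again.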

Additional observations from a re-analysis of the deposited data

How the results depend on the processing

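The 8 tested members, the tested FGF pathway genes named beside them, Foxo1 and Pgr kept their direction under every alternative run. Among the named pathway genes Egr1, Ext2, Hs6st1, Sdc2, Sdc3 and Gpc4 are left out of this statement, since their direction was not followed under each alternative. Fgf9, Fgf18, Fgfr2 and Spry4 kept their calls in all alternatives in which they were tested, with log2 changes from -5.47 to -4.59, 4.52 to 6.94, 1.36 to 1.54 and -2.34 to -0.99. A pseudocount of 0.1 gave the larger changes of low genes, such as 6.94 for Fgf18, -2.34 for Spry4, -5.30 for Fgfr4, -4.40 for Fgfbp1, -4.56 for Gpc3 and -2.17 for Il17rd. Median-of-ratios scaling moved the median of all tested genes from -0.15 to -0.03, so small falls are to be read against it. It gave 4 members higher and 2 lower, as did quantile normalization, against 3 and 3. Array weights gave 10 other pathway genes higher against 6. Over all tested genes the main fit called 2533 higher and 3912 lower. These counts were 3057 and 4424 with array weights, 3072 and 3431 with median-of-ratios scaling and 3236 and 3360 with quantile normalization. On leaving out 1 sample, 2 to 4 members were higher and 2 to 3 lower, and 5 to 8 other pathway genes were higher and 17 to 21 lower. Over all tested genes 2109 to 2740 were then higher and 3119 to 3718 lower.

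With the bioreplicate number as a replicate block, 3 members were higher and 3 lower and 6 other pathway genes were higher and 18 lower, and over all genes 2417 were higher and 3724 lower. The labels do not say whether the numbers pair the samples. Deviations of same-numbered samples from their group means correlated across genes at 0.12, 0.11 and -0.13. Foxo1ff 1 correlated best with Foxo1dd 3 (0.14) and Foxo1ff 3 with Foxo1dd 2 (0.15). Deviations from a mean of 3 samples constrain each other, so these values cannot decide on pairing. By approximate read numbers from annotated exon lengths, depth limits Fgf18 in Foxo1ff, at up to about 40.3 reads a sample, and Fgfr4 in Foxo1dd, at up to about 11.1. It also limits Fgf16, at about 0, 1.13 and 2.17 reads in the Foxo1ff samples and 17.2 to 113 in the Foxo1dd samples. Etv4 had 0 reads in every Foxo1dd sample and about 254 to 529 in the Foxo1ff samples. The number for Fgf18 is too low if the table used a longer gene length. Spry4 had 49.4 to 1060 reads, Fgfr1 66.9 to 491 and Fgfr3 119 to 319. Without a minimum, 2 of the 10 other Fgf genes above 0 in any sample, Fgf1 and Fgf16, were higher and 0 lower. Of all 17891 genes tested in this way, 2802 were higher and 4151 lower.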
